A study of Homo sapiens with 12 samples.

Results

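The 5 mRNAs described here encode the core enzymes and regulators of polyamine metabolism whose translation is known to respond to polyamines. They were taken by Ensembl identifier, each matching 1 of the 57820 genes in the deposited tables: AMD1 (ENSG00000123505.10), ODC1 (ENSG00000115758.8), OAZ1 (ENSG00000104904.8), AZIN1 (ENSG00000155096.9) and SAT1 (ENSG00000130066.12). All 5 passed the low-count filter that left 16920 genes. Polyadenylated RNA was measured in 12 libraries from HEK293 Flp-In T-Rex cells, a human embryonic kidney line. Stable lines overexpressed FLAG/HA-tagged RPL12 (uL11), a ribosomal protein of the large subunit, as the wild-type protein (WT), as S38A (serine to alanine, not phosphorylatable) or as S38D (serine to aspartate, a phosphorylation mimic). For each line there were 2 pooled 80S fractions from sucrose gradients, and each fraction gave 1 input library and 1 library from anti-FLAG immunoprecipitation (IP), so each of the 6 groups held 2 libraries. Lines came from hygromycin-selected monoclonal colonies, form and line coincide, and the labels do not say that endogenous RPL12 was removed. Whether the 2 fractions of a line are from different cultures is not stated in the labels, and the p-values then reflect no more than how far these libraries scatter, possibly for technical reasons.

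Polyamines are small cations that bind RNA and ribosomes, and cells hold them within a narrow range by feedback on translation and protein stability. ODC1, ornithine decarboxylase, makes putrescine, and AMD1, S-adenosylmethionine decarboxylase, supplies the aminopropyl groups that turn putrescine into spermidine and spermine. OAZ1, antizyme 1, binds ODC1 monomers and delivers them to the proteasome, and its own mRNA is read in full only after a ribosomal frameshift that polyamines stimulate. AZIN1, antizyme inhibitor 1, is a catalytically inactive relative of ODC1 that captures antizyme, and its translation is repressed when polyamines are plentiful. SAT1, spermidine/spermine N1-acetyltransferase, starts polyamine breakdown and export, and its mRNA is translated better when polyamines are high. An mRNA in an 80S fraction carries a lone ribosome, on the main reading frame or on an upstream one.

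The AMD1 leader is the textbook case of an upstream reading frame that stalls ribosomes in response to polyamines, and it is shown because it lies within the start-site windows of the RefSeq table (build GRCh38.p14). It occupies chr6:110874796-110874816 on the plus strand, 11 or 12 bases after the start of transcription depending on which of the neighbouring annotated starts is taken. It is 21 bases long, with 6 codons before the stop. Capitals mark the start and stop codons.
AMD1 upstream reading frame: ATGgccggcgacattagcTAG
Among 34943 windows of 50 transcribed bases in that table, 40.2% held ATG and 10.2% held ATG with an in-frame stop (TAA, TAG or TGA) inside the window, searched on the transcribed strand. For AMD1, 2 of 3 windows held such a frame. The 2 windows of ODC1, 1 of OAZ1 and 1 of SAT1 held no ATG, which says nothing of the leader beyond those bases. The other members' regulatory sequences were not used here.

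Input libraries held 7434431 to 8723130 gene counts and IP libraries 3186164 to 7430881. ERCC spike-in RNA took 0.116% to 0.484% of the counts in inputs and 1.44% to 5.43% in IP libraries, and how much was added to the RNA of the IP libraries is not known here. Of the IP libraries, those of S38A held the most gene counts (6150315 and 7430881) and the lowest spike-in shares (2.15% and 1.44%). S38A and high IP depth therefore coincide, and the part of depth in differences between lines was not tested. Levels below are CPM, read counts relative to library size, after TMM scaling, which sets libraries to a shared level from the bulk of genes. They are not corrected for gene length, so no level is compared between genes. The members together took 0.153% to 0.188% of the gene counts in inputs and 0.179% to 0.263% in IP libraries. Fewer cells and less RNA per cell cannot be told apart in such bulk samples. The design has no mock IP from untagged cells, so background binding and recovery through RPL12 cannot be told apart.

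The first comparison asked how each mRNA was represented in RNA bound to tagged RPL12 relative to the 80S fraction it came from, over the 3 lines. Transcripts for ODC1, its inhibitor OAZ1 and the catabolic enzyme SAT1 were higher in IP, by 1.47-, 1.60- and 1.75-fold. AZIN1 mRNA was lower, by 1.39-fold, and AMD1 mRNA did not pass the test. Thus 3 of the 5 members rose and 1 fell at adjusted p under 0.05 (edgeR quasi-likelihood test, Benjamini-Hochberg over 16920 genes), where 31.8% of all genes were called, 15.9% up and 15.9% down. All 5 members are among the 25% of genes with the highest mean CPM, and there 37.4% of 4230 genes rose and 12.5% fell. Against that background, 3 of 5 is no result about the set, and what follows describes the single mRNAs. The members' median log2 change was 0.56, beside -0.04 over all genes and 0.17 over that abundant 25%.

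ODC1 mRNA, for the first enzyme of the pathway, stood at 141 to 186 CPM in the 6 inputs (median 161) and at 208 to 287 CPM in the 6 IP libraries (median 229). Every IP library lay above every input, a pattern that 6.15% of all genes showed. The log2 change was 0.56 (SE 0.11, adjusted p = 0.0019), and the WT fractions gave 0.43 and 0.53, those of S38A 0.42 and 0.49, and those of S38D 0.73 each. The S38D fractions therefore gave the highest values. ODC1 was higher in IP in 6 of 6 fractions, as were 20.3% of all genes. Neither share was computed for the most abundant genes alone, where calls of higher in IP were more common than over all genes. Among mRNAs as abundant as ODC1 these patterns may therefore be more common than the shares given.

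AMD1 mRNA, for the other decarboxylase, covered nearly the same range on both sides. It stood at 282 to 390 CPM in inputs (median 311) and at 279 to 377 CPM in IP libraries (median 348), and the ranges overlapped almost fully. The lowest and the highest library of each side were the first and the second WT fraction. The log2 change was -0.02 and -0.05 for the WT fractions, 0.17 and -0.04 for S38A, and 0.27 and 0.17 for S38D. The fitted change was 0.08 (SE 0.11, adjusted p = 0.61), and scaling by total counts turned it to -0.13, when the median of all genes also moved, from -0.04 to -0.25.

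OAZ1 mRNA, for antizyme, had the lowest p of the 5 members. Its 6 inputs lay between 267 and 305 CPM (median 293), with a coefficient of variation of 4.68%. Its 6 IP libraries lay between 393 and 525 CPM (median 477), with one of 11.2%. The sides did not overlap, as for 6.15% of all genes in this direction. The log2 change was 0.67 (SE 0.08, adjusted p = 0.00024), the 184th lowest p of all genes. It was 0.60 and 0.74 for the WT fractions, 0.49 and 0.62 for S38A, and 0.74 and 0.85 for S38D. All 6 fractions thus moved up, as in 20.3% of all genes, and S38A gave the lowest value. As for ODC1, neither share was computed for the most abundant genes alone, where these patterns may be more common.

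AZIN1 mRNA, for the antizyme inhibitor, moved the other way. It stood at 95.1 to 126 CPM in inputs (median 103) and at 66.9 to 90.4 CPM in IP libraries (median 75.9), from 869 to 996 reads per input and 176 to 598 per IP library. Every IP library lay below every input, which held for 6.86% of all genes. The log2 change was -0.48 (SE 0.10, adjusted p = 0.0043). The WT fractions gave -0.61 and -0.48, those of S38A -0.31 and -0.38, and those of S38D -0.49 and -0.61. AZIN1 was thus lower in IP in 6 of 6 fractions, as were 23.3% of all genes, and the S38A fractions changed least. These shares too were not computed for the most abundant genes alone.

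SAT1 mRNA, for the acetyltransferase, had the largest fitted change of the 5 and the widest spread. It stood at 509 to 872 CPM in inputs (median 800) and at 687 to 2169 CPM in IP libraries (median 1319), with coefficients of variation of 17.7% and 38.2%. The sides overlapped, since the second S38A IP library, at 687 CPM, lay below 5 of the 6 inputs. The log2 change was 0.81 (SE 0.16, adjusted p = 0.0022). The WT fractions gave 1.31 and 0.56, those of S38A 0.52 and 0.43, and those of S38D 0.84 and 1.04.

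**Figure D1:**
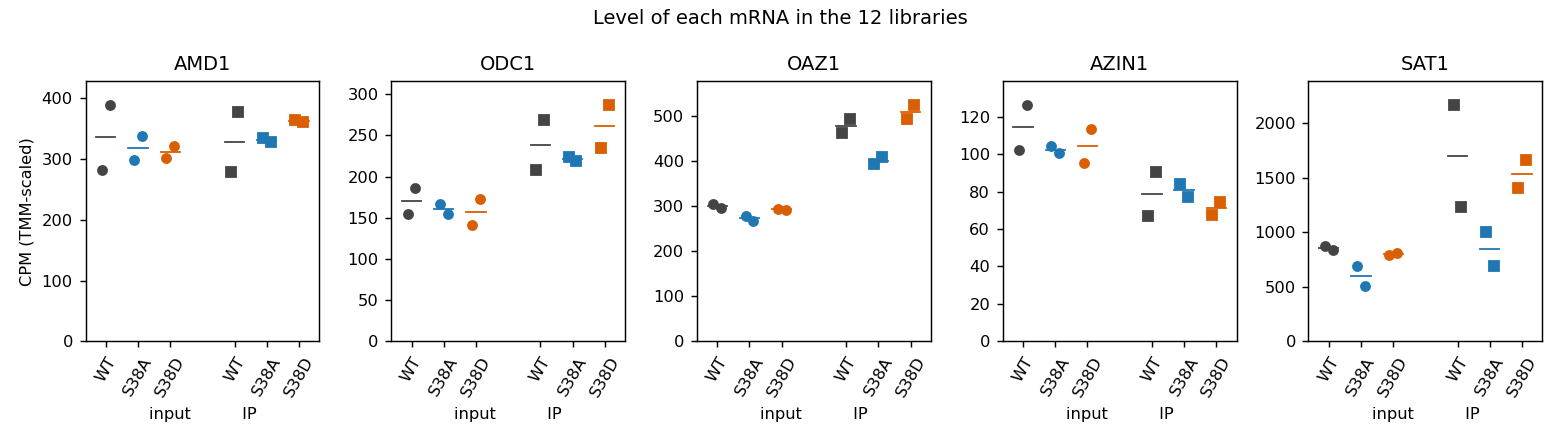
CPM (TMM-scaled, vertical axis from 0) of each mRNA in the 6 input libraries (circles) and 6 IP libraries (squares) of WT, S38A and S38D, with group means of 2 libraries as lines. ODC1 and OAZ1 lie higher in every IP library than in any input and AZIN1 lower, while AMD1 and SAT1 overlap.

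**Figure D2:**
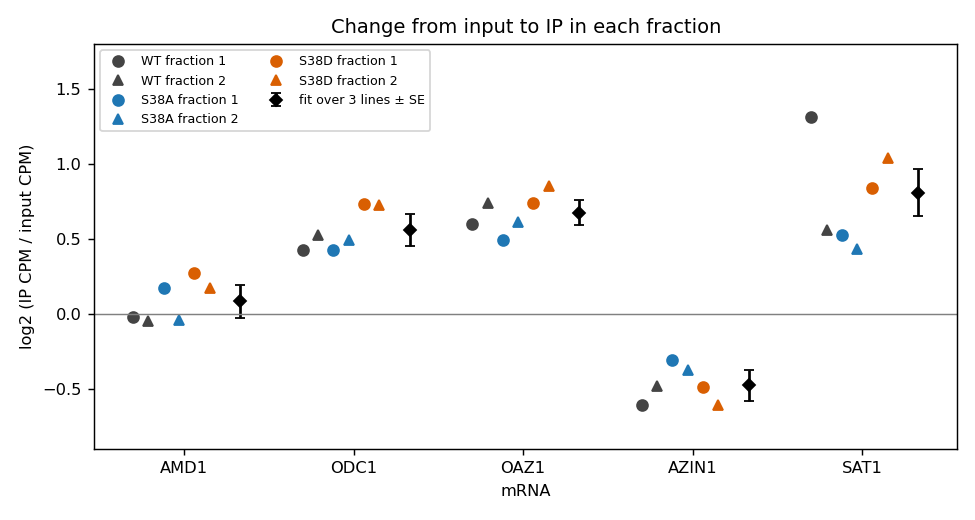
Log2 ratio of IP to input CPM for each of the 6 fractions (colour for line, shape for fraction number) and the fitted change over the 3 lines with its SE (diamonds). ODC1, OAZ1 and SAT1 are above 0 and AZIN1 is below 0 in 6 of 6 fractions, and AMD1 lies on both sides of 0.

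SAT1 levels in IP followed library depth step by step. Its read count was nearly constant over the 6 IP libraries, from 5321 to 6047, while their total gene counts ranged over 2.33-fold. In order of rising depth the CPM was 2169 in the first WT library, 1667 in the second and 1409 in the first of S38D, 1229 in the second of WT, and 998 and 687 in the first and second of S38A. The level therefore fell at each step from the least to the most counted library, as it did for 1.71% of all genes and for none of the other 4 members. How many of the most abundant genes did so was not computed. In the same order the spike-in share of these libraries was 5.43%, 5.18%, 3.79%, 2.57%, 2.15% and 1.44%. By contrast, the counts of AMD1, ODC1, OAZ1 and AZIN1 rose with depth, over 2.61- to 3.47-fold, and their CPM in IP ranged over only 1.34- to 1.38-fold. The part of depth and spike-in share in the SAT1 change was not tested. The SAT1 change over the 3 lines was 0.64 without the first WT IP library and 0.92 without the second.

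**Figure D3:**
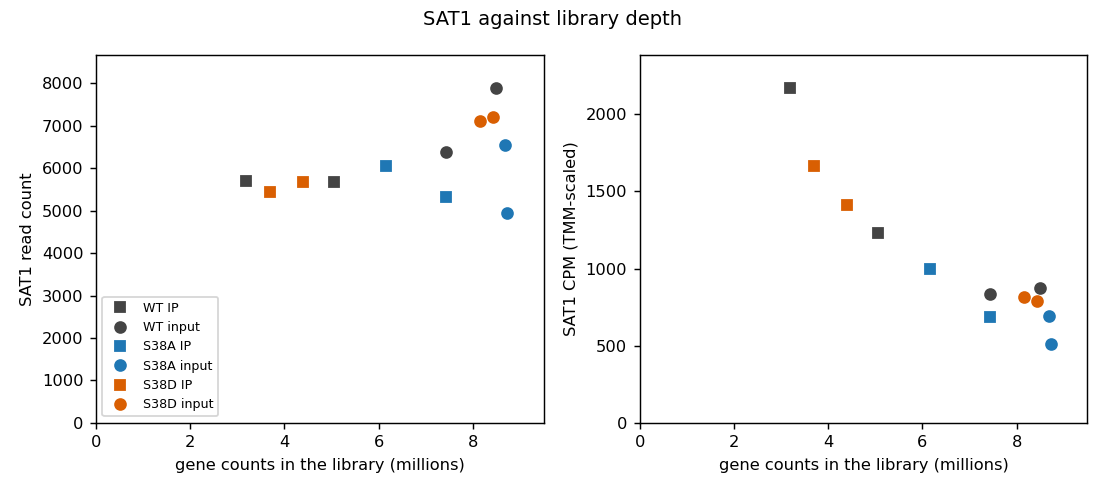
SAT1 read count (left) and SAT1 CPM (right) against the total gene counts of each library, with IP libraries as squares and inputs as circles. The count stays between 5321 and 6047 in IP libraries, so that the CPM falls from 2169 to 687 with rising depth.

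Ratios between 2 members inside a library need no scaling between libraries, and gene length cancels in their change from input to IP. All 10 pairs were compared over the 6 fractions with a two-sided exact sign-flip permutation test of 64 assignments, whose smallest p is 0.031. The OAZ1/AZIN1 ratio, antizyme mRNA to the mRNA of its inhibitor, was 2.34 to 3.10 in the inputs. It was 6.90 and 5.47 in the WT IP libraries, 4.66 and 5.31 in those of S38A, and 7.27 and 7.04 in those of S38D. No IP library overlapped an input, and the share of other gene pairs for which this holds was not computed. The mean log2 rise was 1.15 ± 0.23 (SD, n = 6), or 2.22-fold, in 6 of 6 fractions (exact p = 0.031, adjusted over the 10 pairs p = 0.039). Since OAZ1 rose and AZIN1 fell in the fit above, this is the same pattern on a scale free of library normalisation.

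Of the 10 ratios, 8 moved one way in 6 of 6 fractions, each with the smallest p the design allows (exact p = 0.031, adjusted p = 0.039). Such one-way moves were common among abundant mRNAs. Of all pairs of the 4225 other genes in the highest 25% by mean CPM, 60.1% moved one way in 6 of 6 fractions, so the count of 8 is read as a description of these members and not as particular to them. With 1 fraction left out no ratio can pass, since the smallest exact p is then 0.063. ODC1 rose over its inactive relative AZIN1 by 1.04 ± 0.22 and over AMD1 by 0.47 ± 0.12 in log2 (SD, n = 6 each). AMD1 rose over AZIN1 by 0.56 ± 0.18, although AMD1 alone did not pass. In the fit AZIN1 changed by -0.48 and AMD1 by 0.08. OAZ1 rose over AMD1 by 0.59 ± 0.17. OAZ1 and its target ODC1 changed almost in parallel, with a ratio change of 0.12 ± 0.07 that was positive in 6 of 6 fractions, from 0.0080 to 0.21. SAT1 rose over AZIN1 by 1.26 ± 0.45 and over AMD1 by 0.70 ± 0.35, both widest in the first WT fraction, at 1.93 and 1.33. Both ratios fell at each step of rising depth over the IP libraries. SAT1/AZIN1 was 32.4, 22.3, 20.8, 13.6, 11.9 and 8.90 in that order, and SAT1/AMD1 went from 7.79 to 2.09. A ratio within a library thus keeps the depth pattern of SAT1, and the part of depth in these changes was not tested. The ratios that did not pass were SAT1/ODC1, at 0.23 ± 0.34 with 5 of 6 fractions positive (exact p = 0.094, adjusted p = 0.10), and SAT1/OAZ1, at 0.11 ± 0.33 with 4 of 6 (exact p = 0.53, adjusted p = 0.53). These 10 ratios share members and are not independent of each other.

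**Figure D4:**
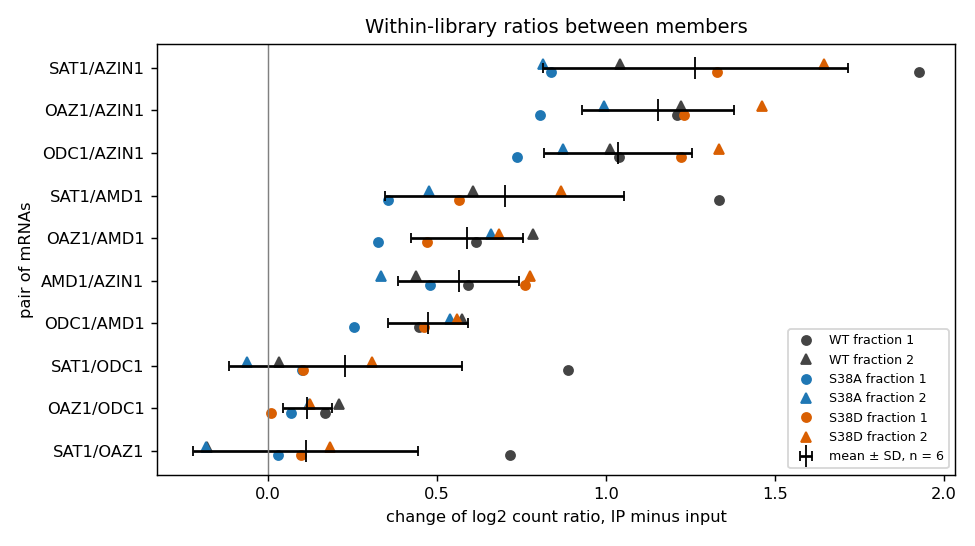
Change from input to IP in the log2 count ratio of each pair of members (rows), by fraction (colour for line, shape for fraction number), with the mean and SD over 6 fractions in black. The pairs with AZIN1 as denominator show mean changes of 0.56 to 1.26, and the first WT fraction stands to the right in the pairs with SAT1.

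Each line was then taken by itself, in the fit of all 12 libraries. In WT, OAZ1 rose by 0.67 (SE 0.15, edgeR adjusted p = 0.016) and SAT1 by 0.99 (SE 0.27, adjusted p = 0.036), where 11.2% of genes were called, 5.77% up and 5.48% down. ODC1 at 0.49 (SE 0.18, adjusted p = 0.10), AZIN1 at -0.53 (SE 0.18, adjusted p = 0.077) and AMD1 at -0.03 (SE 0.19, adjusted p = 0.94) did not pass. With the fraction as a replicate block, which called 28.5% of genes, 4 members passed in WT, with ODC1 at 0.48 (adjusted p = 0.0070) and AZIN1 at -0.54 (adjusted p = 0.0060) now among them. With 1 library left out, the OAZ1 call was lost without the first WT input (adjusted p = 0.085) and without the second (0.14). The SAT1 call was lost on omission of either WT input (adjusted p = 0.13 for the first and 0.20 for the second), of either S38D input (0.052 each) and of the first WT IP library (0.26), where its change was 0.55. With only the 4 WT libraries no member passed, nor did any gene. Total counts ended the calls of OAZ1 (adjusted p = 0.075) and SAT1 (0.053), and voom that of SAT1 (0.062).

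In S38D, ODC1 rose by 0.73 (SE 0.18, edgeR adjusted p = 0.043) and OAZ1 by 0.80 (SE 0.15, adjusted p = 0.023), where 4.87% of genes were called, 3.13% up and 1.74% down. SAT1 at 0.94 (SE 0.27, adjusted p = 0.063), AZIN1 at -0.55 (SE 0.18, adjusted p = 0.095) and AMD1 at 0.22 (SE 0.19, adjusted p = 0.55) did not pass. With the replicate block, which called 20% of genes in place of 4.87%, 4 members passed, SAT1 at 0.94 (adjusted p = 0.0034) and AZIN1 at -0.55 (adjusted p = 0.0084) included. The OAZ1 call was lost without any of the 4 S38D libraries (adjusted p = 0.077 to 0.19). The ODC1 call was kept only on omission of either WT IP library and was lost in the other 10 omissions (adjusted p = 0.054 to 0.26) and with total counts (0.12).

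In S38A no member passed, and no gene did (0% called, edgeR), although 15.2% of genes and 2 of the 5 members had an unadjusted p under 0.05. OAZ1 stood at 0.56 (SE 0.15, adjusted p = 0.15), ODC1 at 0.46 (SE 0.18, adjusted p = 0.27), SAT1 at 0.49 (SE 0.27, adjusted p = 0.42), AZIN1 at -0.34 (SE 0.18, adjusted p = 0.38) and AMD1 at 0.06 (SE 0.19, adjusted p = 0.92). With the replicate block, which called 12.3% of genes, OAZ1 (0.56, adjusted p = 0.012) and ODC1 (0.46, adjusted p = 0.020) passed. DESeq2 called 4.08% of the genes to which it gave an adjusted p, or 236 up and 227 down of 16920 tested. Of the members it called OAZ1 alone (adjusted p = 0.0041), and voom called no member.

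Whether a form of RPL12 altered the recovery of these mRNAs was tested by interaction contrasts, and no member passed in any of the 3 (0% of genes called in each, edgeR adjusted p = 1.00 for every member). None had an unadjusted p under 0.05, where 0.644% to 2.32% of all genes did, and none passed with DESeq2, voom or the replicate block. The largest difference was for SAT1, at -0.51 (SE 0.38) for S38A versus WT and 0.46 (SE 0.38) for S38D versus S38A. Without the first WT IP library the SAT1 value for S38A versus WT was -0.09, and without the second -0.86. For ODC1, S38D differed from WT by 0.24 (SE 0.26), and for OAZ1 by 0.13 (SE 0.21). For AZIN1 the S38A versus WT value was 0.19 (SE 0.25), and for AMD1 the S38D versus WT value was 0.25 (SE 0.27). A p that misses the threshold does not show that the lines act alike.

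The 80S inputs were compared to ask whether these mRNAs differed between lines in level relative to the bulk of genes. No member passed in any of the 3 comparisons (edgeR; 0% of 16728 genes called for S38A versus WT, 0.00598% for each of the others). An unadjusted p under 0.05 was found for 15.3% of all genes in S38A versus WT and for 3.77% in S38D versus S38A (edgeR). Of the members SAT1 alone had one, in both of these comparisons. It averaged 601 ± 131 CPM in S38A input, 853 ± 26.3 in WT and 800.1 ± 17.0 in S38D (SD, n = 2 each), so S38A was lowest, and each neighbour in this order differed by more than the larger SD. The log2 change was -0.48 for S38A versus WT (SE 0.18, unadjusted p = 0.023, adjusted p = 0.25) and 0.41 for S38D versus S38A (SE 0.18, unadjusted p = 0.045, adjusted p = 0.96), and these comparisons share the S38A libraries. The S38A versus WT value was -0.73 (adjusted p = 0.037) without the first S38A input and -0.28 (adjusted p = 0.77) without the second. The second S38A input, at 509 CPM, was the lowest of the 6.

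Among the other members, the TMM-scaled level of OAZ1 varied least over the 6 inputs (coefficient of variation 4.68%). Those of ODC1, AZIN1 and AMD1 varied more (9.77% to 12.0%). OAZ1 averaged 301 ± 6.06 CPM in WT, 293 ± 3.01 in S38D and 273 ± 8.01 in S38A (SD, n = 2), ODC1 170.5 ± 22.2, 157 ± 22.9 and 161 ± 7.88 in the same order, and AZIN1 114 ± 17.1, 104 ± 13.1 and 102 ± 2.90. AMD1 averaged 336 ± 76.1, 311 ± 13.8 and 319 ± 28.5. For OAZ1 each step in this order exceeded the larger SD, but no OAZ1 comparison between inputs passed (edgeR, lowest adjusted p = 0.69, for S38A versus WT). An SD from 2 libraries is itself uncertain, so the orders of lines here and for SAT1 above are descriptions only. For ODC1, AZIN1 and AMD1, all neighbours in the order of line means lay within the larger of their SDs. In IP libraries the order was S38D, WT, S38A for OAZ1 (509 ± 23.0, 478 ± 23.1 and 401 ± 12.3 CPM) and for ODC1 (261 ± 37.4, 238 ± 42.4 and 221 ± 3.24). For SAT1 it was WT, S38D, S38A (1699 ± 665, 1538 ± 182 and 843 ± 220.0), for AZIN1 S38A, WT, S38D (80.7 ± 4.92, 78.6 ± 16.6 and 71.2 ± 4.85), and for AMD1 S38D, S38A, WT (362 ± 2.06, 332 ± 4.81 and 328 ± 69.8). Neighbours in these orders differed by more than the larger SD for OAZ1 at both steps and for S38D over S38A in SAT1 and AMD1, and not for the rest, with no test made of IP levels alone. The S38A IP libraries were also the most counted, and the part of depth in these orders was not tested.

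The gene most like SAT1 in log2 CPM over the 12 libraries, of 9898 with mean CPM of at least 20, was ENSG00000077152.5 (Pearson r = 0.99; 0.97 within inputs and 0.99 within IP libraries), which rose by 0.48 in IP (SE 0.10, edgeR adjusted p = 0.0033). The gene most like AZIN1 was ENSG00000120963.7 (r = 0.98; 0.97 and 0.91), at -0.48 (SE 0.11, adjusted p = 0.0052). These points share libraries and depth, and the genes were picked as the closest of many.

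**Figure D5:**
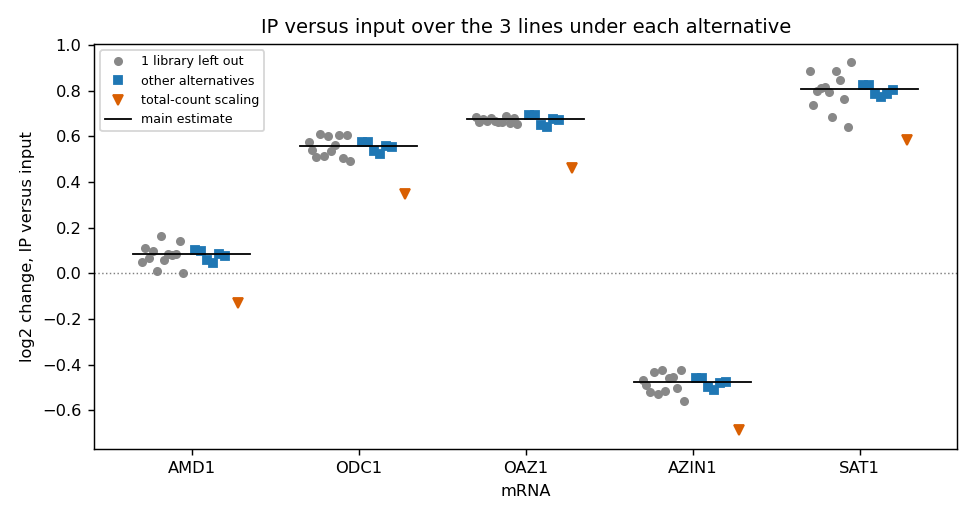
Log2 change from input to IP over the 3 lines for each mRNA under every alternative (grey, 1 library left out; blue, other alternatives; orange, scaling by total counts) with the main estimate as a line. ODC1, OAZ1 and SAT1 stay above 0 and AZIN1 below 0, and total counts give the lowest value for each mRNA, at -0.13 for AMD1.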

How the data were processed

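The authors deposited raw read counts, 1 table per library, for 57820 Ensembl genes and 92 spike-in sequences (ERCC). The submitters' processing notes name build hg19 and the tools STAR 2.4.2a, bcl2fastq 2.16.0.10 and DESeq2. The sources used here do not say how reads were counted, with or without strand and multiple mapping. The RefSeq table lists 4 pseudogenes named for AMD1 and 1 each for ODC1 and OAZ1, so their counts are less certain. Of 22 further pathway genes listed by symbol, 0 could be matched to an identifier. Markers of HEK293 cells were therefore not checked either.

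ERCC counts stayed out of library sizes. Genes were filtered with filterByExpr (minimum count 10), scaled by TMM and tested with glmQLFit and glmQLFTest in edgeR 4.0.16 (R 4.3.3). The 12 libraries entered 1 fit (16920 genes) and the 6 inputs another (16728). Adjustment (Benjamini-Hochberg) ran over all genes tested, and calls were made at adjusted p under 0.05. SE is the log2 change divided by the square root of F. A prior count of 2 entered log2 CPM. Named genes were the 5 members and, for the highest and the lowest change, the most correlated gene of mean CPM of at least 20. Members and lists were chosen with earlier results of these data known.

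Inputs and IPs with the same number share a fraction per the labels, and their deviations had correlations over genes of 0.28 (WT), 0.64 (S38A) and 0.54 (S38D). Replicates differed by more than sampling noise (chi-square per degree of freedom 5.39 to 16.0). Alternatives were RLE, total counts, spike-in scaling of inputs, DESeq2 1.42.0, voom with quality weights (limma 3.58.1), no filter, a filter at mean CPM 10, the replicate block, fewer libraries in the fit and omission of each library. Tested on simulated counts for IP versus input over the 3 lines (16650 genes), the fit recovered 71.0% of 2-fold changes, and for WT alone 33.0% (16638 genes). The changed genes were drawn from all abundances and the simulated libraries shared no fraction. At most 100 tested genes per fold size were changed, far fewer than the 5378 and 1903 genes called in these comparisons of the data. The adjustment was therefore stricter in the simulation, and these rates are not those of the members. The interaction contrasts were not simulated.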

Additional observations from a re-analysis of the deposited data

How the results depend on the processing

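For IP versus input over the 3 lines, 4 members passed under each of the 19 alternatives, with log2 changes of 0.35 to 0.61 for ODC1, 0.46 to 0.69 for OAZ1, -0.69 to -0.42 for AZIN1 and 0.58 to 0.92 for SAT1, while the share of all genes called ran from 16.7% with no filter to 46.5% with the replicate block. In WT, the 2 members that passed became 4 with the replicate block (28.5% of genes called), 3 with DESeq2 (18.8%, ODC1 gained) or the mean CPM filter (18.4%, AZIN1 gained), 1 with total counts (17.3%, AZIN1) or voom (3.53%), 0 when the WT libraries alone were fitted, and 0 to 3 when any 1 library was omitted. For S38A, 0 became 2 with the replicate block (12.3%) and 1 with DESeq2 (4.08%). In S38D, 2 became 4 with voom (10.9%) or the replicate block (20%), 3 with DESeq2 (14.5%), no filter (4.64%) or the S38D libraries alone (9.83%), each by gain of SAT1, and 0 to 4 with 1 library left out. With total counts the 2 were OAZ1 and AZIN1 (adjusted p = 0.025), with 9.59% of genes called. The DESeq2 percentages cover only genes to which DESeq2 gave an adjusted p. Of all 16920 genes it called 1572 up and 1055 down in WT. In S38A it called 236 and 227, and in S38D 1190 and 508. For S38A versus WT inputs, 0 became 1 (SAT1) with no filter and 0 to 1 with 1 library left out. The cause was not tested. No called value reversed. Sign changes in values that passed neither way numbered 7 in IP versus input, 16 in IP over input between lines and 20 between inputs. All values compared there, called or not, numbered 395, 300 and 210. AZIN1 had the lowest count of any member, 176 reads in the first WT IP library.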
